A study of Arabidopsis thaliana with 9 samples.

Results

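AT5G37990 and AT5G38020 are Arabidopsis genes of the SABATH family of methyltransferases that stand close together on chromosome 5. They are 2 genes, each read by 1 probe set of its own (249599_at for AT5G37990 and 249567_at for AT5G38020), out of 13286 genes with a probe set of their own. They were picked by locus, and the choice was made with their signal in each line in view, so their differences between lines are given as a description without a test. In the gene table used (assembly TAIR10.1) 4 genes lie between them, of which 2 code for proteins and 2 are non-coding RNA genes.

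SABATH enzymes move a methyl group from S-adenosylmethionine onto the carboxyl group, or in some members a ring nitrogen, of small molecules. The family takes its name from the first members described, which methylate salicylate and benzoate or form theobromine by methylation. Arabidopsis members with known substrates include JMT for jasmonate, BSMT1 for benzoate and salicylate, IAMT1 for indole-3-acetate, GAMT1 and GAMT2 for gibberellins, NAMT1 for nicotinate and FAMT for farnesoic acid. Many of the products are volatile or inactive forms of hormones and defence compounds. No substrate is stated here for AT5G37990 or AT5G38020.

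The lines compared were iae1, iae2 and B1798, with 3 ATH1 arrays each. All are labelled as Ler (the Landsberg erecta accession), whereas the ATH1 probes were designed on the Columbia sequence. The iae lines come from work on raised excision of the maize transposon Ac, and the series title puts the question of what lies behind their phenotypes genetically. No allele, transgene or treatment that would set the lines apart is labelled, and B1798, used as the reference because it has no iae name, is nowhere called a control. RNA came from crown, hypocotyl, cotyledons and apical bud at growth stage 1.0 on 1% sucrose, with 30 plants per pool, although the pooled unit is not stated. In such whole-tissue RNA, fewer cells of a type and less RNA per cell cannot be told apart.

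The 9 arrays had been scaled before deposition to a trimmed mean of 100, and their median signals lay between 35.9 and 38.5. Arrays of the same line correlated at 0.985 to 0.99 across probe sets and arrays of different lines at 0.974 to 0.985. The 3'/5' signal ratio of the GAPDH control, a sign of RNA integrity, was lower in iae2 (1.73 to 1.98) than in B1798 (2.27 to 3.11) and iae1 (2.32 to 2.48). Tissue labels could be checked on few genes, since the annotation used names a probe set for only part of the listed markers. RCA, the Rubisco activase gene of green tissue, read 2519 to 3204.8 on all arrays. The meristem genes LAS and CLV3 were read as well, and CLV3, the stem cell peptide gene, read at most 8.3. The 4 root markers read, of 6 listed, summed to 4040.6 to 4508.3 in B1798, 4010.4 to 4247.8 in iae1 and 3371.6 to 3734.9 in iae2, most of it PYK10. Of these root markers only PYK10 passed the limma test in iae2 against B1798 (ratio of means 0.792, adjusted p = 0.00898). The other 3 read higher on every iae2 array than on any B1798 array without passing, with ratios of 1.4 for EXPA7 (adjusted p = 0.135), 1.36 for AT5G17820 (0.0695) and 1.32 for EXPA18 (0.0716). Over all tested probe sets 17.8% passed in this comparison, and the arrays of these lines failed to overlap for 33.3%. The median log2 difference of the 4 was 0.3, opposite in sign to that of their sum, and all 4 had an unadjusted p under 0.05. In iae1 against B1798 AT5G17820 alone passed, higher in iae1 (log2 difference 0.51, adjusted p = 0.0202), where 7.21% of all passed. In iae2 against iae1 PYK10 alone passed, lower in iae2 (-0.25, adjusted p = 0.0385), where 19.6% of all passed. The labelled tissues do not include root, and whether tissue make-up has a part in the values below was not tested.

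AT5G37990 read at a low level in B1798 and iae1 and at a several-fold higher level in iae2. Its signal was 30.0, 38.8 and 24.5 on replicates 1 to 3 of B1798, which gives 31.1 ± 7.21 (SD, n = 3). In iae1 it was 35.3, 27.5 and 22.2, or 28.3 ± 6.59. The values of these lines overlapped throughout. In iae2 it was 207.4, 180.9 and 200.3, or 196 ± 13.7. Every iae2 array thus stood far above every array of the other lines, the nearest being 180.9 in iae2 and 38.8 in B1798. The mean iae2 signal was 6.31 times that of B1798 and 6.92 times that of iae1.

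AT5G38020 had the same order of lines with a smaller gap. On replicates 1 to 3 of B1798 the signal was 58.5, 48.8 and 66.8, a mean of 58.0 ± 9.01 (SD, n = 3). In iae1 it was 62.0, 47.1 and 63.3, a mean of 57.5 ± 9.0. B1798 and iae1 again overlapped, with means closer than the spread within either line. In iae2 it was 166.5, 177.2 and 174.5, a mean of 173 ± 5.56. The lowest iae2 array, at 166.5, was above the highest of the others, at 66.8. The mean iae2 signal was 2.98 times that of B1798 and 3.01 times that of iae1.

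**Figure D1:**
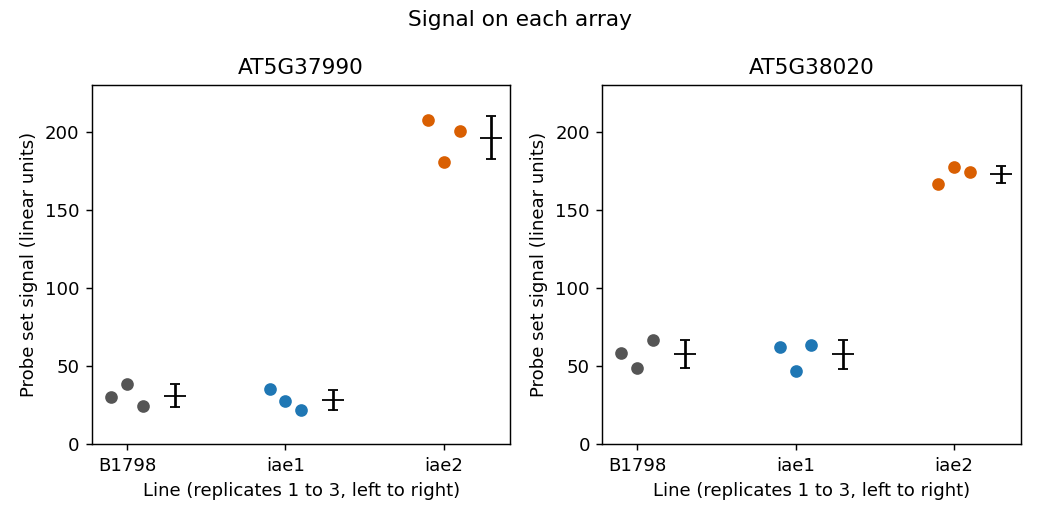
Signal of the probe sets of AT5G37990 (left) and AT5G38020 (right) on each array, in linear units, by line; points are replicates 1 to 3 and the black mark beside them is the mean with its SD. The 3 iae2 arrays lie between 180.9 and 207.4 for AT5G37990 and between 166.5 and 177.2 for AT5G38020, while B1798 and iae1 overlap at low signal.

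On the scale of log2(signal + 16), which compresses low signals, the fitted difference of iae2 from B1798 was 2.18 ± 0.13 (SE) for AT5G37990 and 1.36 ± 0.11 for AT5G38020. From iae1, iae2 differed by 2.27 ± 0.13 and 1.37 ± 0.11. Between iae1 and B1798 the differences were -0.09 ± 0.13 and -0.01 ± 0.11, smaller than their standard errors. Over all 14404 tested probe sets, 17.8% were called (adjusted p under 0.05 in limma) in iae2 against B1798, 7.21% in iae1 against B1798 and 19.6% in iae2 against iae1. By direction, 9.77% were called higher and 7.99% lower in iae2 against B1798, 3.8% and 3.42% in iae1 against B1798, and 10.2% and 9.44% in iae2 against iae1. The arrays of iae2 failed to overlap with those of B1798 for 33.3% of tested probe sets and with those of iae1 for 35.8%, and for both methyltransferase genes, which were chosen with this pattern known. Those of iae1 and B1798 failed to overlap for 24.7%. The comparisons with B1798 share its arrays. The GAPDH ratio moved with the line, and with that ratio as a covariate the iae2 minus B1798 differences were 2.13 ± 0.28 for AT5G37990 and 1.42 ± 0.24 for AT5G38020.

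The low level of AT5G37990 was near the array's own filter, the 40th percentile of signals, which lay between 23.2 and 26 units. It was at or above that level on 2 of 3 arrays of B1798, 2 of 3 of iae1 and 3 of 3 of iae2, so it would have been tested without iae2 too. AT5G38020 was above it on 9 of 9 arrays. Relative spread between arrays of a line was larger at low signal: the coefficient of variation of AT5G37990 was 23.2% for B1798, 23.3% for iae1 and 6.99% for iae2. For AT5G38020 it was 15.5%, 15.7% and 3.22%.

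Within lines the 2 genes did not move up and down together. In B1798 replicate 2 had the highest AT5G37990 signal (38.8) and the lowest AT5G38020 signal (48.8), and replicate 3 the lowest and highest (24.5 and 66.8). In iae2 replicate 1 was highest for AT5G37990 and lowest for AT5G38020, and replicate 2 the reverse. In iae1 replicate 3 was lowest for AT5G37990 (22.2) and highest for AT5G38020 (63.3). After subtraction of line means the correlation over the 9 arrays was -0.509 on the log2 scale, a description of arrays that share one scaling and only 3 values a line.

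**Figure D2:**
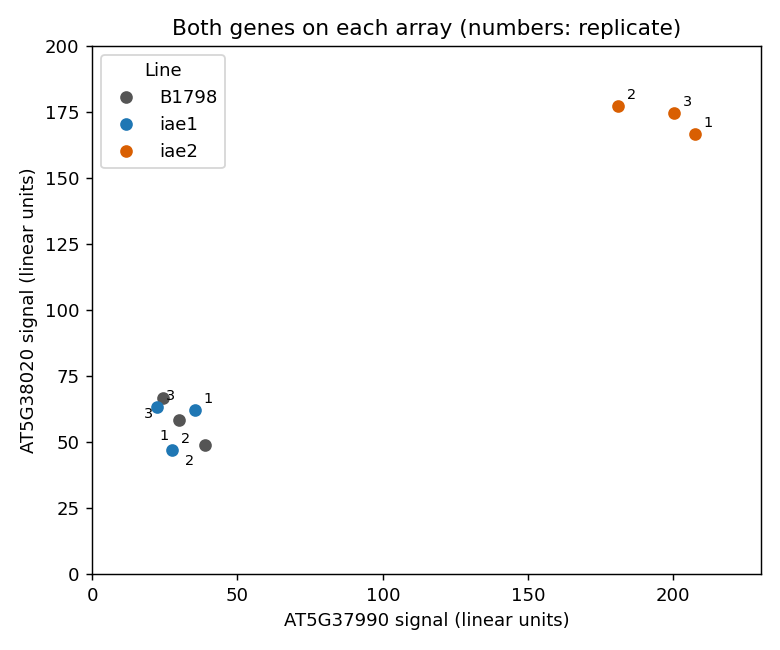
Signal of AT5G38020 (vertical) against AT5G37990 (horizontal) on each of the 9 arrays, both in linear units, coloured by line and numbered by replicate. The iae2 arrays form a group at high values of both genes; inside each line the array with the highest AT5G37990 signal is not the one with the highest AT5G38020 signal.

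The genes around the pair were read to see how far the higher iae2 signal reached along the chromosome. The window took the 15 genes on each side and the 4 in between, 34 genes in all, of which 16 had a probe set of their own and 4 were tested. AT5G38030, next to AT5G38020 in gene order and a member of the MATE family of efflux transporters, rose in iae2. Its B1798 signals of 36.0, 35.4 and 34.1 and iae1 signals of 32.2, 29.4 and 31.3 compare with 80.8, 64.3 and 72.5 for iae2. All iae2 arrays were above all others. The means were 35.2 ± 0.971, 31.0 ± 1.43 and 72.5 ± 8.25 (SD, n = 3), a log2 difference of 0.79 ± 0.11 against B1798 (limma, adjusted p = 9.48e-05) and of 0.91 ± 0.11 against iae1 (adjusted p = 2.16e-05). With the GAPDH ratio as a covariate the iae2 minus B1798 difference was 0.67 ± 0.22 and the call was lost (adjusted p = 0.147), while against iae1 it kept its call (0.83, adjusted p = 0.0104). Over the 21 alternatives run the adjusted p ran from 6.57e-05 to 0.147 against B1798 and from 1.26e-05 to 0.0104 against iae1. In iae1 against B1798 AT5G38030 did not pass (-0.12, adjusted p = 0.57).

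The other 3 tested neighbours did not pass in any comparison. AT5G37930, a gene of the SINA family of ubiquitin ligases on the AT5G37990 side, had 124 ± 7.07 in B1798, 135 ± 20.5 in iae1 and 133 ± 7.13 in iae2. AT5G38070 had 31.3 ± 4.79, 28.7 ± 6.65 and 28.5 ± 4.81. AT5G38110, which encodes the histone chaperone ASF1B, had 32.5 ± 1.76, 44.9 ± 5.08 and 41.8 ± 13.0, with log2 differences from B1798 of 0.33 for iae1 (adjusted p = 0.221) and 0.23 for iae2 (adjusted p = 0.341). The latter passed without iae2 replicate 2, whose signal was 27.1 (log2 difference 0.43, adjusted p = 0.0426, with up to 0.85 under other alternatives). Thus 1 of 4 tested neighbours (25%) was called in iae2 against B1798, where 17.8% of all tested probe sets were, and the median log2 difference was 0.16 against 0.003 over all probe sets. For iae1 against B1798 limma called 0 of 4, with 1 at an unadjusted p under 0.05, where 7.21% of all were called. For iae2 against iae1 it called 1 of 4, where 19.6% of all were.

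The gene before the pair and the genes between its members read at low signal. AT5G37980, directly before AT5G37990, read 13.0 ± 8.69 for B1798, 13.7 ± 8.79 for iae1 and 17.3 ± 0.306 for iae2. The 2 protein genes between the pair are read only by probe sets that each also read a second gene of the window. The probe set for AT5G38010 and AT5G37950, genes of the UDP-glycosyltransferase family, read 20.6 ± 6.52 in B1798, 19.2 ± 4.25 for iae1 and 22.5 ± 6.41 for iae2. The probe set for AT5G38000 and AT5G37940, of the zinc-binding dehydrogenase family, read 1.5, 0.9 and 9.3 in B1798, 15.5, 14.8 and 12.3 for iae1 and 22, 25.1 and 20.4 for iae2. It stayed under the filter on all arrays, but the 3 lines did not overlap. Of tested probe sets, 24.7% did not overlap in iae1 against B1798, 33.3% in iae2 against B1798 and 35.8% in iae2 against iae1. In a fit with no filter the probe set for AT5G38000 and AT5G37940 was called in iae2 against B1798 (log2 difference 0.98 ± 0.15, adjusted p = 0.0026). It was not called in iae1 against B1798 (0.63, adjusted p = 0.0541) or iae2 against iae1 (0.35, adjusted p = 0.198). That fit called 9.57% of all probe sets in iae2 against B1798. The probe set was singled out after its values were seen.

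**Figure D3:**
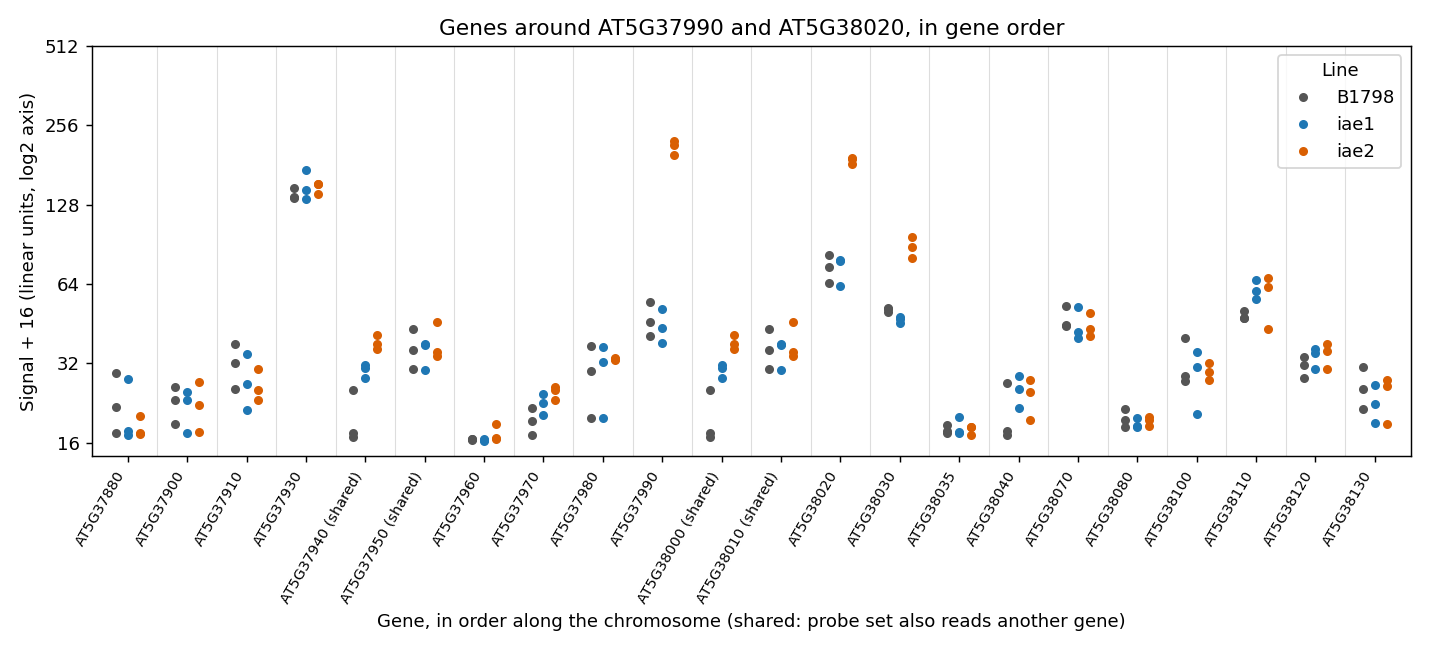
Signal plus 16 (linear units on a log2 axis) on each array for the genes around AT5G37990 and AT5G38020 that a probe set reads, in chromosome order with equal spacing, coloured by line. A probe set that reads 2 of the genes is drawn at both and marked as shared. AT5G37990, AT5G38020 and AT5G38030 have iae2 points well above the others, and most of the remaining genes lie under 64 with the lines mixed.

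In a wider window, 50 genes on each side and chosen after the data were seen, 15 of the 39 genes with their own probe set were tested. Of these 3 were called higher and 1 lower in iae2 against B1798, or 26.7% where the whole array had 17.8%. Besides AT5G38030 they were AT5G37690, 43 genes before AT5G37990 (34.0 ± 7.08 in B1798, 52.5 ± 6.08 in iae1, 94.7 ± 11.4 in iae2), ARLA1A (82.3 ± 8.49, 101 ± 2.96 and 115 ± 16.5) and the lower gene AT5G38220 (63.7 ± 13.0, 42.3 ± 8.96 and 33.8 ± 4.75). Counted from AT5G37990, AT5G38220 lay at position 34 and AT5G38020 at position 5, while ARLA1A lay 44 genes before AT5G37990. Only 15 of the 104 genes of this window were tested, so most genes in between were not. With the GAPDH ratio as a covariate 1 of the 15 was called in this comparison, where 393 of all 14404 tested probe sets were. In iae2 against iae1 2 of the 15 were called higher and 1 lower, or 20% where 19.6% of all were called. In iae1 against B1798 there were 2 calls, both higher, and 13.3% of the window compares with 7.21% of all probe sets. This count was 1 without B1798 replicate 1, iae1 replicate 1 or iae1 replicate 3, and 3 without B1798 replicate 2. It was also 1 with log2(value + 64), with no filter and with only the 2 lines compared.

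Only 2 other SABATH genes with a probe set of their own were tested, and 0 were called in any comparison. Over all tested probe sets 7.21% were called in iae1 against B1798, 17.8% in iae2 against B1798 and 19.6% in iae2 against iae1. With 2 genes, 0 calls says little about the family. Of the 22 other family genes listed, 14 had a probe set of their own and 2 passed the filter. AT3G21950 read 60.4 ± 7.71 in B1798, 47.8 ± 3.73 in iae1 and 61.1 ± 2.96 in iae2. AT1G68040 read 30.1 ± 3.13, 33.1 ± 4.87 and 33.3 ± 1.65. Neither passed in limma, where at an unadjusted p under 0.05 there was 1 gene in iae1 against B1798, 0 in iae2 against B1798 and 1 in iae2 against iae1. The smallest adjusted p was 0.0865, for AT3G21950 in iae2 against iae1 (log2 difference 0.27 ± 0.11). The median log2 difference of these 2 genes from B1798 was -0.08 in iae1 and 0.06 in iae2.

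The probe set shared by PXMT1 (AT1G66700), described as a xanthine methyltransferase, and its neighbour AT1G66690 ran opposite to the chromosome 5 pair. It read 624.7, 563.1 and 456.0 in B1798, 249.5, 269.5 and 274.6 for iae1 and 61.4, 44.4 and 76.5 for iae2. No value of one line reached into another. Of all tested probe sets, 24.7% had no overlap in iae1 against B1798, 33.3% in iae2 against B1798 and 35.8% in iae2 against iae1. The log2 difference from B1798 was -1.0 ± 0.13 for iae1 (limma, adjusted p = 0.000252) and -2.89 ± 0.13 for iae2 (adjusted p = 8.09e-10), and iae2 was lower than iae1 too (-1.89, adjusted p = 9.5e-08). With the GAPDH ratio as a covariate the iae2 minus B1798 difference was -3.22 (adjusted p = 1.49e-05, the highest over the 21 alternatives run). The probe set cannot say which of its 2 genes fell. AT1G66720, in the same stretch of chromosome 1, was under the filter on all arrays at 8.83 ± 2.94, 8.27 ± 2.97 and 2.27 ± 1.12.

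The probe set shared by FAMT (AT3G44860), the farnesoic acid methyltransferase gene, and AT3G44870 rose in iae2. It read 43.1, 39.6 and 33.0 in B1798, 41.5, 59.0 and 49.7 for iae1 and 90.5, 69.5 and 87.9 for iae2. The iae2 arrays were above all others, and iae1 overlapped B1798. The log2 difference of iae2 was 0.85 ± 0.13 from B1798 (adjusted p = 0.000203) and 0.58 ± 0.13 from iae1 (adjusted p = 0.00423), and that of iae1 from B1798 was 0.27 (adjusted p = 0.232). With the GAPDH ratio as a covariate both calls were lost, with smaller differences and wider errors (0.59 ± 0.26, adjusted p = 0.289, and 0.40 ± 0.20, adjusted p = 0.273). The lowest adjusted p over the 21 alternatives was 0.000168 and 0.00298. These shared probe sets lie outside the rule for named genes and were singled out after their values were seen.

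The 12 other family genes with a probe set of their own were not tested because they fell under the filter. JMT read at most 10.5 on any array and BSMT1 at most 17.3. AT5G37970, which precedes AT5G37990 with 1 gene between them, read 3.40 ± 2.2 in B1798, 6.57 ± 2.1 in iae1 and 8.90 ± 1.44 in iae2, all near the bottom of the scale. Its iae2 arrays were above those of B1798, as 33.3% of tested probe sets did not overlap there, and overlapped those of iae1. A limma fit with no filter did not call it in iae2 against B1798 (0.36, adjusted p = 0.0595). AT5G38100, the SABATH gene on the far side of AT5G38020, read 16.1 ± 6.93, 12.9 ± 7.64 and 13.9 ± 2.2, with the lines overlapping. In the fit with no filter, 2 of the 14 genes were called in iae2 against B1798, where 9.57% of all probe sets were. These were NAMT1, the nicotinate methyltransferase gene (7.77 ± 2.2 in B1798, 16.8 ± 3.04 in iae2, log2 difference 0.47, adjusted p = 0.0474), and AT1G66720 (-0.44, adjusted p = 0.0378). The same genes were called in iae2 against iae1 (0.74, adjusted p = 0.00444, and -0.40, adjusted p = 0.0496), where 10.4% of all were. In iae1 against B1798 that fit called 0 of the 14 and 3.42% of all.

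**Figure D4:**
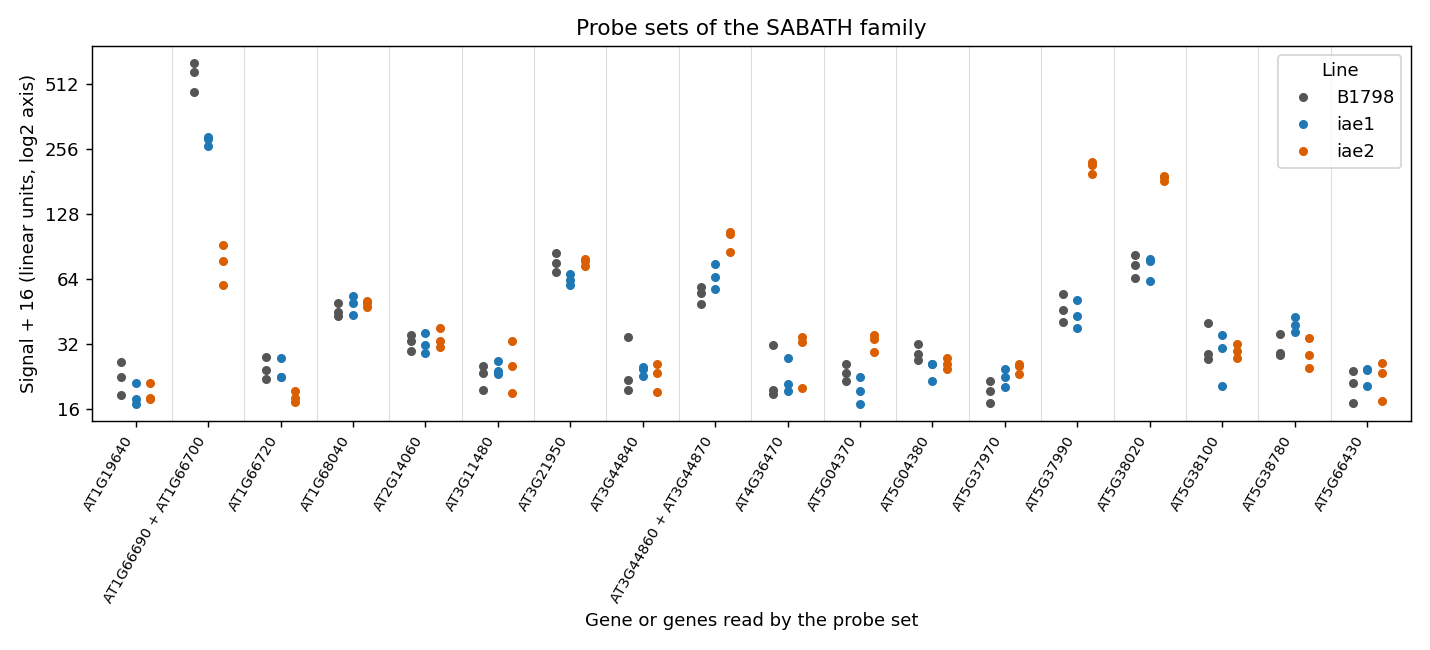
Signal plus 16 (linear units on a log2 axis) on each array for the 18 SABATH probe sets, in locus order, coloured by line; names joined by a plus sign share a probe set. AT5G37990 and AT5G38020 have iae2 above the other lines, the PXMT1 and AT1G66690 probe set steps down from B1798 to iae1 to iae2, and most other family probe sets lie near the bottom.

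Genes of connected pathways could hardly be read with the annotation used, which names 1 gene for 13436 of the 22810 probe sets. The array may measure more of these genes than that annotation names. Of 20 methyl esterase (MES) genes, whose enzymes remove such methyl groups, and of 13 genes of the cycle that supplies S-adenosylmethionine, 0 had a named probe set of their own. Of 12 jasmonate genes, OPCL1, which activates jasmonate precursors for beta-oxidation, was read and tested, with 138 ± 17.2 in B1798, 132 ± 18.4 in iae1 and 148 ± 40.9 in iae2 and adjusted p-values of 0.671 to 0.875. Of 12 salicylate genes, UGT74F1 was read, at most 4.5 on any array, and was not tested. These lists therefore say nothing about the supply or fate of methylated products.

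Other small-molecule O-methyltransferases, a list added after the data had been opened but before its values were seen, gave a further point of comparison. Of 24 genes 7 had their own probe set and 4 were tested. In iae2 against B1798 2 of the 4 were called, both lower, where 17.8% of all tested probe sets were called and 7.99% were called lower. CCOAMT (AT1G67980), of the caffeoyl-CoA methyltransferase type, went from 77.3 ± 7.2 in B1798 to 48.4 ± 6.37 in iae2 (log2 difference -0.54 ± 0.11, adjusted p = 0.00237), with 77.3 ± 6.9 in iae1. AT1G33030 went from 90.3 ± 8.32 to 67.9 ± 4.61 (-0.34, adjusted p = 0.02), with 83.6 ± 3.3 in iae1. With the GAPDH ratio as a covariate the CCOAMT difference was larger, with a wider error, and missed the threshold (-0.82 ± 0.21, adjusted p = 0.0552). The AT1G33030 difference was -0.18 ± 0.19 there (adjusted p = 0.729). Its call was also lost, with a difference of -0.28 without B1798 replicate 3 (adjusted p = 0.0795), -0.30 without iae2 replicate 2 (0.0839) and -0.34 without iae2 replicate 3 (0.0502). Their lowest adjusted p over the 21 alternatives was 0.0013 and 0.0101. A probe set shared by AT4G35150 and AT4G35160 read 18.8, 24.6 and 8.9 in B1798, 17.1, 20.5 and 16.8 in iae1 and 33.4, 26.2 and 35.2 in iae2. It reached the filter on 4 arrays, which include all 3 of iae2, so it was tested only through the line where it is high and no p-value is given. For iae1 against B1798 limma called 0 of the 4, with 0 also at an unadjusted p under 0.05, where 7.21% of all were called. For iae2 against iae1 it called 1 of the 4, CCOAMT (-0.54, adjusted p = 0.00223), where 19.6% of all were.

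Across the array many genes shared the profile of the pair. Likeness was taken as Pearson's r over the 9 arrays on the log2 scale, among 7813 other tested probe sets of 1 gene, and it is set mainly by the gap between iae2 and the other lines. The genes most like AT5G37990 were AT1G04430 (r = 0.992), AT1G22850 (0.991), AT2G33220 (0.9901), AT2G29310 (0.9897) and AT2G25510 (0.9887). AT1G04430 had 225 ± 11.5 in B1798, 210 ± 12.7 in iae1 and 356 ± 14.6 in iae2, and AT2G25510 had 47.2 ± 11.1, 33.3 ± 5.55 and 2397 ± 139. The genes most like AT5G38020 were LCR68 (0.9915), AT5G26270 (0.9887), the thionin family gene AT1G66100 (0.9883), AT4G20480 (0.9872) and AT2G07777 (0.9858). AT1G66100 and AT2G07777 reached the filter only on the 3 iae2 arrays, so they were candidates only through the line where they are high. The levels of LCR68, a defensin-like peptide gene, were 636 ± 43.8, 652 ± 28.6 and 1037 ± 22.6. The 2 lists shared 0 genes. AT5G38020 stood at rank 60 by likeness to AT5G37990 (r = 0.9586), and AT5G37990 at rank 54 by likeness to AT5G38020. AT5G38030 stood at rank 17 for AT5G37990 (0.9819) and rank 49 for AT5G38020 (0.9611).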

How the data were processed

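The authors deposited intensity signals on a linear scale for 22810 probe sets on 9 arrays, scaled to a trimmed mean of 100 (2% trimmed at each end, computed from the values). The algorithm that summarised the probes is not given in the sources used here, and no detection calls were used. Columns were matched to samples by accession, and 0 columns were unmapped. Lines and replicate numbers came from the labels, which do not say that replicates were separate cultures, so the p-values reflect only how far these samples differ, possibly for technical reasons. The number of arrays limits the precision.

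The 64 control probe sets were left out. Testing required a signal no lower than the array's 40th percentile on at least 3 arrays, leaving 14404 of 22746. Signals were taken as log2(value + 16). Limma 3.58.1 in R 4.3.3 fitted a mean per line to all 9 arrays with an intensity trend. Contrasts were two-sided, with Benjamini-Hochberg adjustment over all tested probe sets and a threshold of 0.05. The fit was tested on simulated data. Figures used Python 3.11.15 and matplotlib 3.10.9.

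Probe sets were named from the platform annotation, and loci from the gene table of assembly TAIR10.1. No coordinates are given because no source names a build. The members, lists and tests were chosen with earlier results of these data known. Named genes were the pair, every other SABATH gene and neighbour with its own probe set, up to 3 tested genes of each other list by adjusted p, and the 5 most alike genes. Alternatives changed the pseudocount, floor, normalization, filter, variance model, array weights, lines in the fit and covariates, and left out each array.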

Additional observations from a re-analysis of the deposited data

How the results depend on the processing

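The iae2 differences of AT5G37990 and AT5G38020 kept their direction under all alternatives run. The genes were chosen with every iae2 array known to be above all others. A changed pseudocount or floor, or a left-out array, could therefore not reverse that direction. The size of the differences depended on how low signals were treated. For AT5G37990 the log2 difference of iae2 from B1798, 2.18 as reported, was 2.53 with log2(value + 4), 1.45 with log2(value + 64) and 2.68 with values below 16 set to 16, and from iae1 it was 2.65, 1.5 and 2.82. For AT5G38020 the same settings gave 1.52, 0.96 and 1.58 from B1798 and 1.53, 0.97 and 1.60 from iae1. These follow from the construction of the scales. Leaving out each array gave 2.08 to 2.30 from B1798 and 2.17 to 2.38 from iae1 for AT5G37990, and 1.26 to 1.44 and 1.26 to 1.43 for AT5G38020. The iae1 minus B1798 differences ranged from -0.20 to 0.03 and from -0.10 to 0.09.

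The count of probe sets called in iae1 against B1798 was 1039 and ranged from 617 (without B1798 replicate 2) to 1027 when an array was left out, and it was 683 without iae1 replicate 1, 687 without replicate 2 and 627 without replicate 3. With the GAPDH ratio as a covariate 393 probe sets were called in iae2 against B1798 in place of 2558, and 1102 in iae2 against iae1 in place of 2825. With it 0 of the 4 tested neighbours were called in iae2 against B1798 in place of 1; leaving out arrays gave 1 to 2, the 2 without iae2 replicate 2. For the other SABATH genes 0 were called in each comparison as reported. With no filter 2 were called in iae2 against B1798 and 2 in iae2 against iae1. With shared probe sets counted too, a setting added after the data were seen, it was 1 in iae1 against B1798 and 2 in each other comparison. The cause of these shifts was not tested.

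Replicate numbers are shared by the lines, but same-numbered arrays did not deviate together (correlations of -0.147 to 0.141, 1 of 9 pairs over 0.1). With the replicate block 982, 2499 and 2745 probe sets were called in iae1 against B1798, iae2 against B1798 and iae2 against iae1, and AT5G37990 differed by 2.18 and AT5G38020 by 1.36 between iae2 and B1798. Averaging several probe sets of a gene was not run, since no listed gene had more than 1 of its own. Signals near or under the filter, which include most SABATH genes, limit what could be tested.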
